A study of Mus musculus with 20 samples.

Results

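Dimethyl itaconate (DI) is an ester of itaconate that enters cells, and the libraries described here follow mouse bone marrow-derived macrophages that received it before an inflammatory stimulus. The step examined runs from 2 to 4 h after lipopolysaccharide (LPS) and interferon gamma (IFNg). Its members were chosen by their column labels alone, as the 2 DI libraries at 4 h set against the 2 DI libraries at 2 h over all genes, which makes 4 of the 20 libraries. All 20 libraries carry the labels C57BL/6 and WT, and the macrophages were grown from marrow with m-CSF. The DI libraries had 250 µM DI for 12 h ahead of the stimulus, and the control (Ctrl) libraries had the stimulus without it. Each series was sampled at 0, 1, 2, 4 and 6 h with 2 libraries per group. The labels do not say whether the 2 libraries of a group are separate mice or cultures, so the p-values below measure only the spread between these libraries, which may be technical.

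LPS acts through TLR4 and IFNg through its own receptor and JAK-STAT signalling, and together they drive the inflammatory state of macrophages. The response comes in waves. Immediate-early transcription factors and feedback inhibitors are made first from short-lived mRNAs, and later genes wait for new proteins, opened chromatin or secreted interferon. Itaconate is made in activated macrophages by the enzyme that Acod1 encodes, and DI is an electrophilic ester known to activate NRF2, the regulator of antioxidant genes.

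The 4 libraries held 4096388 to 4726287 counts each, so that 3 counts are worth 0.680 to 0.795 CPM (counts scaled to a common library size), the unit of all levels below. The DI libraries were sparser than the Ctrl libraries of the same times, with 11428 to 12328 genes at 0 against 9725 to 10550, although totals overlapped. They also had fewer genes with 1 to 3 reads, 422 to 663 against 1478 to 1659, so a 0 or a few reads in a DI library may not mean what it means in Ctrl, and this was not tested. At each of the 5 times replicate 1 of DI had fewer genes at 0, more genes with 1 to 3 reads and a higher mitochondrial share than replicate 2 (2.04 against 1.22% of counts at 2 h, 1.48 against 1.24% at 4 h). Replicates correlated across genes at r = 0.912 (DI, 2 h) and 0.910 (DI, 4 h) on log2 CPM, against 0.973 and 0.975 in Ctrl, and the biological coefficient of variation was 42.6% over the 10 DI libraries and 20.1% over the 10 Ctrl libraries. The 30 macrophage identity genes summed to 16681 to 19556 CPM in the 4 libraries. Markers of T and NK cells summed to 0 to 2.06 CPM, those of B cells to 2.72 to 4.90 CPM and those of neutrophils to 423 to 658 CPM, mostly S100a8, S100a9 and Mmp8. No marker of those cell types was called in the step, and their part in the results was not tested. Actb, on whose qPCR value the libraries were pooled, stood at 8679 and 12272 CPM at 2 h and at 16128 and 17327 CPM at 4 h (log2 fold change 0.68 ± 0.32 SE, adjusted p = 0.347). In bulk RNA, fewer cells of a type and less RNA per cell cannot be told apart.

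From 2 to 4 h, 133 of the 10203 genes tested rose and 91 fell in pretreated macrophages, at an adjusted p under 0.05 (edgeR quasi-likelihood test with Benjamini-Hochberg adjustment) and with no limit on fold change. Fold changes are given on the log2 scale with their standard error. These are 1.30% and 0.892% of genes tested, 2.20% in all, and 1382 genes had an unadjusted p under 0.05. Genes that rose included inflammatory effectors (Nos2, Ptgs2, Il27) and IFNg-induced GTPases (Gbp4), and genes that fell included immediate-early transcription factors (Jun, Egr1, Myc), the phosphatase gene Dusp1, the NF-kB partner Nfkbiz and the mRNA decay factor Zfp36l1. The smallest change called was 1.21 on the log2 scale upward and −1.25 downward. The median over all genes tested was −0.03. For each called gene both 4 h libraries lay on the same side of both 2 h libraries, which held for 43.4% of all genes tested.

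The number of calls rested heavily on replicate 2. It was 61 without replicate 2 at 4 h, 81 without replicate 2 at 2 h and 21 without both, against 248 without replicate 1 at 4 h and 208 without replicate 1 at 2 h. Of the 224 genes, 38 kept their call with any single library of the 4 left out, 22 that rose and 16 that fell, and no call changed sign. Those 38 include Setd1b, Slco3a1, Nos2, Il27, Ccne1, Gbp4, Jun, Egr1, Sgk1, Trib1 and Dusp1. Where a gene named ahead of the closing section lost its call in this way, the library and the value are given beside it. In the closing section the leave-outs given are mostly those of the difference between the steps. A fit that leaves 1 library in a group assumes that it varies like the others.

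**Figure D1:**
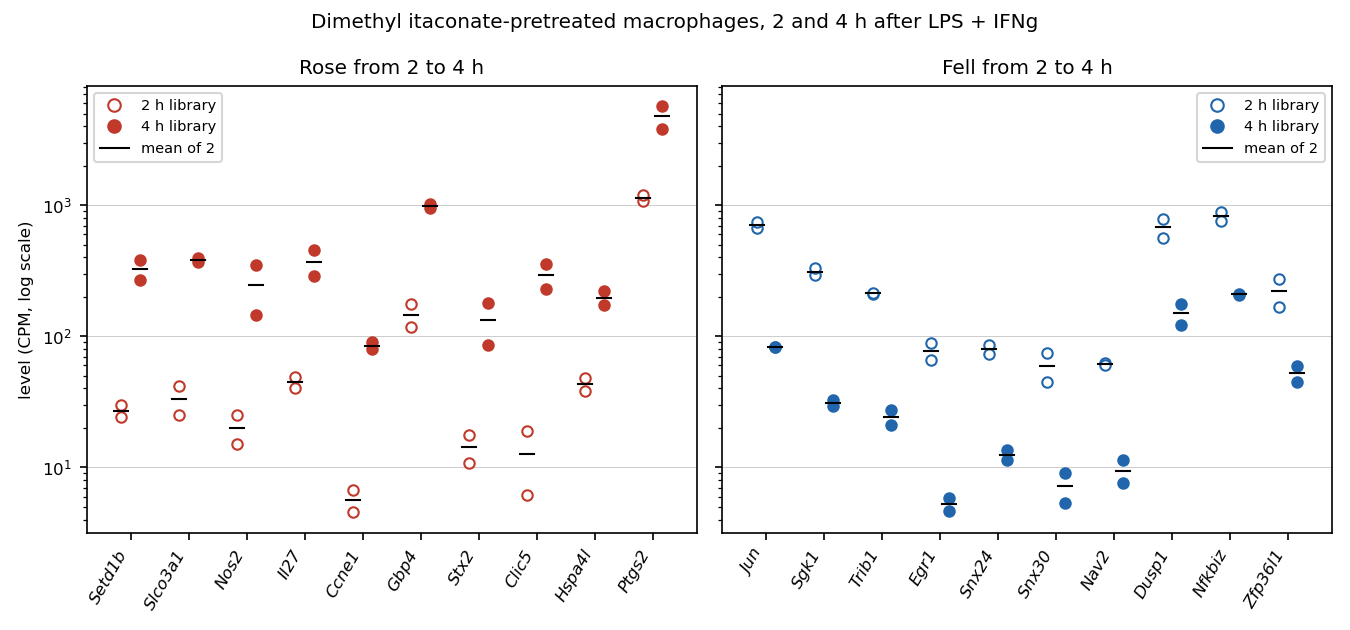
Levels in CPM on a log scale of 20 genes called in the step, 10 that rose (red) and 10 that fell (blue), in the 2 DI libraries at 2 h (open circles) and the 2 at 4 h (filled circles), with bars at the mean of 2. The open and filled circles of each gene do not overlap. Jun went from 672 and 744 CPM to 82.7 CPM in each 4 h library, and Ptgs2 was the most abundant of the 20.

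Jun, Egr1, Sgk1 and Trib1 were among the genes that fell and kept the call under every alternative run. Jun, a subunit of the AP-1 transcription factor (chromosome 4, 95049034 to 95052222, minus strand, GRCm38), measured 672 and 744 CPM at 2 h and 82.7 CPM in both libraries at 4 h. Its log2 fold change was −3.10 ± 0.38 (adjusted p = 2.14e-05), and the libraries of each time lay close together. Egr1, a growth-response zinc finger factor, measured 89.6 and 65.8 CPM at 2 h and 4.63 and 5.83 CPM at 4 h (−3.89 ± 0.49, adjusted p = 3.46e-05). Both 4 h libraries were far below both 2 h libraries. Sgk1, a kinase related to AKT, measured 294 and 329 CPM and then 32.7 and 29.7 CPM (−3.32 ± 0.40, adjusted p = 2.14e-05). Trib1, a pseudokinase that directs protein degradation, measured 210 and 214 CPM and then 27.3 and 21.2 CPM (−3.13 ± 0.38, adjusted p = 2.14e-05). For both genes the spread within a time was a small part of the fall.

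Of the 22 immediate-early genes tested, 5 fell and 0 rose, 22.7% against 0.892% of all genes, and the median of the list was −0.82 against −0.03. The other 17 were not called. The 5 were Egr1, Jun, Myc, Egr2 and Zfp36. Ctrl had 7 falls and 1 rise among 22 tested, where 8.56% of all genes fell and 9.41% rose. The difference between the steps was called for 1 of 23. Myc, a growth-promoting transcription factor, measured 16.6 and 12.1 CPM at 2 h and 0.244 and 2.38 CPM at 4 h (−3.45 ± 0.75, adjusted p = 0.0101). Its call was lost without replicate 1 at 4 h (−2.58, adjusted p = 0.0933), and the fitted value was −5.75 without replicate 2 at 4 h. Egr2, named here after its values were seen, measured 50.6 and 46.7 CPM and then 7.56 and 12.5 CPM. Its fall of −2.28 ± 0.52 (adjusted p = 0.0136) did not pass without either 4 h library or without replicate 2 at 2 h, where the adjusted p was 0.112, 0.0563 and 0.0613. With single libraries left out the list gave 3 to 6 calls, and 3 with replicate 2 left out at both times. Fos, the partner of Jun in AP-1, measured 32 and 47.4 CPM at 2 h and 78.0 and 124 CPM at 4 h, and this difference of 1.35 ± 0.44 did not pass (adjusted p = 0.119). Atf3, a stress-induced member of the same protein class, overlapped between the times, at 848 and 640 CPM and then 681 and 712 CPM (−0.10 ± 0.32, adjusted p = 0.946).

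Several signalling and mRNA regulators were among the genes that fell. Dusp1, the phosphatase that inactivates p38 and JNK, measured 565 and 791 CPM at 2 h and 178 and 122 CPM at 4 h (−2.18 ± 0.35, adjusted p = 6.04e-04). It was the only one of 11 MAP kinase phosphatases tested that was called (9.09% fell, against 0.892% of all genes). Nfkbiz, the gene of IkBz, a nuclear partner of NF-kB, measured 885 and 758 CPM and then 212 and 207 CPM (−1.97 ± 0.34, adjusted p = 0.00135). Of the 17 cytokine mRNA decay regulators tested 2 fell and 0 rose (11.8% fell, against 0.892% of all genes), both of them proteins that bind AU-rich mRNA and speed its decay. Zfp36l1 measured 167 and 273 CPM and then 44.9 and 59.9 CPM (−2.07 ± 0.37, adjusted p = 0.00168). Zfp36, which encodes tristetraprolin and is also on the immediate-early list, measured 1149 and 1315 CPM and then 419 and 373 CPM (−1.64 ± 0.32, adjusted p = 0.00396). The call for Zfp36 was lost without replicate 2 at 4 h (−1.56, adjusted p = 0.0966), while Dusp1, Nfkbiz and Zfp36l1 passed with any library left out. Replicates of each time did not overlap those of the other time for any of the 4.

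The promoter of Dusp1 is shown because it holds a full palindrome of the element bound by CREB and ATF proteins. The sequence runs over 150 bases up to the start, from the RefSeq table (GRCm38.p6, minus strand, chr17:26508473-26508622), with TGACGTCA in capitals at 143 to 136 bases before the start.
Dusp1: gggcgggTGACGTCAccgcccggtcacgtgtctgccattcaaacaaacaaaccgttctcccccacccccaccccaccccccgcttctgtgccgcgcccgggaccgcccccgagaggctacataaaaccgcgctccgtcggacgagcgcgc
These letters, on either strand, were found in 4 of 101 promoters of genes that fell (3.96%), in 3 of 151 promoters of genes that rose (1.99%) and in 3.20% of the 10399 promoters of tested genes, windows of 250 bases before to 50 after the start. A match is a description of letters. Dusp1 overlaps Ergic1 on the opposite strand in the annotation, and Ergic1 averaged 62.7 CPM at 2 h and 48.5 CPM at 4 h.

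Further genes fell and kept the call with any library left out. Nav2, a cytoskeleton-associated protein, measured 62.6 and 60.1 CPM and then 7.56 and 11.4 CPM (−2.69). The sorting nexins Snx30 (−3.06) and Snx24 (−2.67), which bind endosomal membranes, went from means of 59.9 and 79.6 CPM to 7.19 and 12.5 CPM. Named after their values were seen, Kdm6b, a histone H3 lysine demethylase, went from 482 and 621 CPM to 109 and 119 CPM (−2.27 ± 0.38, adjusted p = 9.42e-04), and Zfand5, a ubiquitin-binding zinc finger protein, went from a mean of 1150 to 251 CPM (−2.20 ± 0.33). All of these passed with each library left out in turn.

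Other genes among the largest falls depended on a library. Without replicate 2 at 4 h the adjusted p was 0.0619 for Rcan1, a calcineurin inhibitor (−2.99 with all libraries), 0.0841 for Ptger4, a prostaglandin E2 receptor (−2.56), 0.0910 for Gcnt1 (−3.15) and 0.0755 for Speg (−2.67). Kif23, a mitotic kinesin, measured 20.6 and 26.0 CPM and then 5.12 and 0 CPM (−3.15 ± 0.82, adjusted p = 0.0430), and lost its call without replicate 2 at 4 h or either 2 h library (adjusted p 0.0911 to 0.242). Without replicate 1 at 4 h, which held all of its reads at that time, the fitted value was −9.93. Mcm3, a subunit of the replicative helicase, fell by 2.58 on the log2 scale and did not pass with any of the 4 libraries left out (adjusted p 0.113 to 0.162).

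Genes of mixed function rose and kept their call with any single library left out. Setd1b, a histone H3 lysine methyltransferase (chromosome 5, 123142193 to 123168629, plus strand, GRCm38), measured 29.7 and 24.2 CPM at 2 h and 381 and 269 CPM at 4 h. Its log2 fold change was 3.59 ± 0.38 (adjusted p = 3.44e-06). Slco3a1, an organic anion transporter, measured 41.5 and 25.3 CPM and then 398 and 372 CPM (3.52 ± 0.38, adjusted p = 3.44e-06). Both 4 h libraries of each gene were several times above both 2 h libraries. Ccne1, the cyclin that drives entry into S phase, measured 4.54 and 6.70 CPM and then 90.0 and 79.7 CPM (3.92 ± 0.51, adjusted p = 4.40e-05). Clic5, a chloride channel-like protein, measured 6.12 and 19.1 CPM and then 229 and 356 CPM (4.55 ± 0.66, adjusted p = 0.00143). Stx2, a membrane fusion protein, measured 10.9 and 17.8 CPM and then 86.1 and 178 CPM (3.21 ± 0.46). Replicates of Clic5 and Stx2 stood further apart than those of Slco3a1, and in neither gene did the times overlap. Mycl, a relative of Myc, measured 1.59 and 0 CPM and then 21.7 and 33.6 CPM (5.03 ± 0.95), and Ppargc1b, a coactivator of mitochondrial genes, 2.27 and 6.45 CPM and then 32.4 and 66.0 CPM (adjusted p = 0.00143). The fitted rise of Mycl was 10.17 without replicate 1 at 2 h, the library with reads at that time. All 7 genes passed with each library left out. Mycl lost its call with the DESeq2 Wald test, and Mycl and Ppargc1b lost it with both replicate 2 libraries out.

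Further genes kept in the same way were named after their values were seen. Jdp2, which encodes a repressor of AP-1, measured 31.8 and 27.3 CPM at 2 h and 175 and 303 CPM at 4 h (3.01 ± 0.45, adjusted p = 2.33e-04). Acsl1, which activates long-chain fatty acids, measured 412 and 371 CPM and then 1449 and 1968 CPM (2.13 ± 0.34, adjusted p = 6.04e-04). Zbtb7a, a zinc finger transcription factor, measured 155 and 181 CPM and then 641 and 710 CPM (2.01 ± 0.33). In each the 4 h libraries were above both 2 h libraries. Among the largest rises, Abhd18 passed with any library left out (4.36 ± 0.78).

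Effector genes of activated macrophages made up 6 of the 133 genes that rose. Nos2, the inducible nitric oxide synthase (chromosome 11, 78920787 to 78960254, plus strand, GRCm38), measured 15.0 and 25.3 CPM at 2 h and 146 and 350 CPM at 4 h. Its log2 fold change was 3.63 ± 0.47 (adjusted p = 3.63e-05), and the lower 4 h library was above both 2 h libraries. Ptgs2, the inducible cyclooxygenase that starts prostaglandin synthesis, measured 1079 and 1194 CPM and then 5679 and 3839 CPM (2.07 ± 0.36, adjusted p = 0.00143). Of 33 effector genes tested 6 rose and 1 fell (18.2 and 3.03%, against 1.30 and 0.892% of all genes), with a median of 0.53. Besides Nos2 and Ptgs2 these were Ass1, which resupplies the substrate of Nos2, Upp1, a uridine phosphorylase, Cd40, a costimulatory receptor, and Fpr2, a formyl peptide receptor, with Arg1, the arginase that competes for the same substrate, as the one that fell. Ctrl had 18 rises and 1 fall among the 33 effector genes, where 9.41% of all genes rose and 8.56% fell. The difference between the steps was called for 0.

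Ass1 measured 2.72 and 1.55 CPM at 2 h and 20.7 and 21.2 CPM at 4 h (3.27 ± 0.79, adjusted p = 0.0222). Arg1 was low, at 12.0 and 17.0 CPM and then 1.95 and 1.06 CPM (−3.24 ± 0.86, adjusted p = 0.0430). Upp1 rose by 1.93 ± 0.42, Cd40 by 1.69 ± 0.36 and Fpr2 by 1.61 ± 0.40. The calls of Nos2 and Ptgs2 held with any library left out, and those of the other 5 did not. Fpr2 and Arg1 passed with no single library left out. Without replicate 2 at 2 h the adjusted p was 0.213 for Ass1, 0.128 for Upp1, 0.125 for Cd40, 0.237 for both Fpr2 and Arg1, and without replicate 2 at 4 h it was 0.0761, 0.192, 0.0504, 0.101 and 0.280 in the same order. Without replicate 1 at 2 h it was 0.0545 for Ass1, 0.0605 for Fpr2 and 0.0556 for Arg1, and without replicate 1 at 4 h 0.0568 for Fpr2 and 0.0767 for Arg1. The list gave 2 to 5 rises with single libraries left out and 1 with both replicate 2 libraries out. Acod1, the itaconate-producing enzyme, was among the most abundant genes at both times, with 13513 and 27215 CPM at 2 h and 31177 and 23800 CPM at 4 h. The times overlapped and the difference of 0.43 ± 0.34 was not called (adjusted p = 0.643).

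Secreted factors moved unevenly. Il27, the p28 subunit of the cytokine IL-27, measured 40.1 and 49.0 CPM at 2 h and 453 and 290 CPM at 4 h (3.06 ± 0.40, adjusted p = 3.63e-05), and it passed with any library left out. Ebi3, which encodes the partner subunit, measured 18.4 and 26.6 CPM and then 31.9 and 30.7 CPM, and the difference of 0.48 ± 0.44 was not called (adjusted p = 0.712). Il27 overlaps Apobr on the opposite strand, and Apobr averaged 31.9 and 37.4 CPM at the 2 times. Of 27 cytokine and growth factor genes tested 2 rose and 1 fell (7.41 and 3.70%, against 1.30 and 0.892% of all genes). The other rise was that of Tnfsf10, the death ligand TRAIL, from 17.9 and 29.4 CPM to 68.3 and 103 CPM (1.86 ± 0.47, adjusted p = 0.0332). The fall was that of Gdf15, a stress-induced member of the TGF-beta family, from 744 and 713 CPM to 311 and 202 CPM (−1.51 ± 0.35, adjusted p = 0.0165). Neither held without replicate 2 at 4 h (adjusted p = 0.283 and 0.292) or without replicate 2 at 2 h (0.0917 and 0.0718), and Tnfsf10 also failed without replicate 1 at 2 h (0.213).

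Several well-known inflammatory cytokines did not pass. Tnf measured 1076 and 1269 CPM at 2 h and 1523 and 977 CPM at 4 h, so that the times overlapped (0.09 ± 0.32, adjusted p = 0.946). Il6 measured 17.0 and 29.4 CPM and then 24.6 and 27.0 CPM (0.16 ± 0.56, adjusted p = 0.95), and Il1a 273 and 155 CPM and then 239 and 202 CPM (0.04 ± 0.40). Il1b measured 46.3 and 36.1 CPM and then 137 and 93.5 CPM without overlap, and its difference of 1.48 ± 0.41 just missed the threshold (adjusted p = 0.0546). Il12b lay between 0 and 2.12 CPM and Il10 between 0.680 and 5.93 CPM in the 4 libraries, and neither was called (adjusted p = 0.88 for Il12b and 0.995 for Il10). Of 13 genes known to depend on IkBz 0 were called, 3 had an unadjusted p under 0.05, all of them higher, and the list's median was 0.27. In the Ctrl step 9 of 12 rose, where 9.41% of all genes did, and the difference between the steps was called for 0 of 13.

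Of 19 chemokine genes tested 1 rose (5.26% against 1.30% of all genes). Ccl5, which attracts T cells and monocytes, measured 667 and 632 CPM at 2 h and 1995 and 1593 CPM at 4 h (1.47 ± 0.33, adjusted p = 0.0125), and it did not pass with any single library left out (adjusted p 0.0504 to 0.146). Cxcl9 measured 1390 and 1135 CPM and then 2666 and 2709 CPM without overlap (1.09 ± 0.33, adjusted p = 0.0909). Cxcl10 overlapped, at 8394 and 9197 CPM and then 9581 and 7183 CPM (−0.07 ± 0.30, adjusted p = 0.959). The CXCR3 ligands Cxcl9 and Cxcl10 thus gave no call. The 1 call on the SOCS and receptor feedback list, given next, is 4.17% of its tested members, against 1.30% of all genes. Among SOCS and receptor feedback genes 1 of 24 rose, the TNF receptor gene Tnfrsf1b (1.21 ± 0.33, adjusted p = 0.0467), which did not pass with any library left out (adjusted p 0.0810 to 0.311), and Socs1, an inhibitor of JAK kinases, was at 1107 and 1192 CPM and then 721 and 641 CPM (−0.76 ± 0.31, adjusted p = 0.266).

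NF-kB target genes are the core of the LPS response. Of 32 primary response genes 4 rose and 0 fell (12.5% against 1.30% of all genes), with a median of 0.48. Besides Ptgs2 these were Nfkbie, which encodes the inhibitor IkB-epsilon, Icam1, a leukocyte adhesion receptor, and Tnfaip2. Ctrl had 10 rises and 1 fall among the 32 primary response genes, where 9.41% of all genes rose and 8.56% fell. The difference between the steps was called for 0. Icam1 measured 181 and 169 CPM at 2 h and 411 and 416 CPM at 4 h (1.24 ± 0.32, adjusted p = 0.0382). Nfkbie measured 59.0 and 29.4 CPM and then 143 and 218 CPM (2.03 ± 0.46, adjusted p = 0.0146), and Tnfaip2 3404 and 3588 CPM and then 5350 and 10950 CPM (1.22 ± 0.33, adjusted p = 0.0480). Icam1 replicates were tight within each time, and those of Tnfaip2 at 4 h were far apart. With other scalings, filters, models or tests the list gave 2 to 11 rises and 0 to 3 falls. Without replicate 2 at 4 h the adjusted p was 0.203 for Icam1, 0.173 for Nfkbie and 0.744 for Tnfaip2, whose log2 fold change became 0.61, and the list gave 1 to 3 rises with single libraries left out and 0 without both replicate 2 libraries. Without replicate 2 at 2 h it was 0.291, 0.249 and 0.237, and Icam1 (0.131) and Tnfaip2 (0.170) also failed without replicate 1 at 2 h and Icam1 without replicate 1 at 4 h (0.107).

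Among 15 NF-kB subunits and inhibitors 2 rose and 1 fell (13.3 and 6.67%, against 1.30 and 0.892% of all genes), the inhibitors Nfkbid and Nfkbie and the cofactor Nfkbiz described above. Nfkbid, which encodes the nuclear inhibitor IkBNS, measured 3.63 and 7.22 CPM at 2 h and 35.1 and 37.6 CPM at 4 h (2.75 ± 0.56, adjusted p = 0.00601). It lost its call without replicate 1 at 2 h (2.33, adjusted p = 0.0785). Nfkbia, the classical feedback inhibitor, overlapped between the times, at 4403 and 5903 CPM and then 5312 and 4424 CPM (−0.08 ± 0.32, adjusted p = 0.953). Genes of the LPS receptor and TLR signalling gave 0 calls of 26, with a median of 0.21 and 7 genes higher at an unadjusted p under 0.05.

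Of the 31 gene lists, IFNg-induced GTPases and their regulators had the highest median, 1.14, and 7 of 24 rose and 0 fell (29.2% against 1.30% of all genes). Ctrl had 8 rises among 26 tested, where 9.41% of all genes rose, with a list median of 0.60. The difference between the steps was called for 0 of 27. These GTPases attack the membranes around intracellular microbes. Gbp4, a guanylate-binding protein, measured 176 and 117 CPM at 2 h and 1020 and 949 CPM at 4 h (2.75 ± 0.37, adjusted p = 6.94e-05) and passed with any library left out. Gbp3 measured 414 and 202 CPM and then 1671 and 903 CPM (2.06 ± 0.40, adjusted p = 0.00423), and Gbp2 1043 and 675 CPM and then 2354 and 2283 CPM (1.43 ± 0.32, adjusted p = 0.0115). Both 4 h libraries of each gene were above both 2 h libraries. The remaining calls were Cd40, Nlrc5, Irgm1 and Gbp9, and the last pair are named because they complete the count. Irgm1, an immunity-related GTPase, measured 102 and 31.7 CPM and then 261 and 380 CPM (2.26 ± 0.55, adjusted p = 0.0358), with a wide spread at 2 h. Gbp9 measured 97.1 and 38.7 CPM and then 420 and 183 CPM (2.15 ± 0.47, adjusted p = 0.0125). Guanylate-binding protein genes are close copies of each other, and Gbp4 overlaps Gbp8 and Gbp9 on the same strand, so the division of reads among them is uncertain.

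Apart from Gbp4 these calls leaned on replicate 2 at 2 h, the lower library for Gbp2, Gbp3, Gbp9, Irgm1, Cd40 and Nlrc5. Without it the adjusted p was 0.271 for Gbp2, 0.120 for Gbp3, 0.218 for Gbp9, 0.288 for Irgm1, 0.125 for Cd40 and 0.461 for Nlrc5, and Gbp4 alone of the list was called. Without replicate 1 at 4 h it was 0.0504 for Gbp2, 0.0568 for Gbp3, 0.05 (just above the threshold) for Irgm1 and 0.156 for Gbp9, whose log2 fold change was then 1.43. Without replicate 2 at 4 h it was 0.0841 for Gbp2, 0.252 for Irgm1, 0.0504 for Cd40 and 0.432 for Nlrc5, and Nlrc5 also failed without replicate 1 at 2 h (0.0608). With other single libraries left out the list gave 3 to 8 rises, and without both replicate 2 libraries 1. Nlrc5, the activator of MHC class I genes, had a log2 fold change of 1.42 ± 0.38 (adjusted p = 0.0480).

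The promoters of 3 genes of this list and of 2 interferon-stimulated genes described next are shown, since they hold the interferon-stimulated response element, searched as GAAA, any 2 bases and GAAA, just ahead of the start. Each runs over the 130 bases up to the start (RefSeq table, GRCm38.p6) with the matches on either strand in capitals.
Irgm1 (minus strand, chr11:48871421-48871550): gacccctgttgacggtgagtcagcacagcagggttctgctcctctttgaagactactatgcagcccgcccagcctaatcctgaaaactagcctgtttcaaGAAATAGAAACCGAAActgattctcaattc
Gbp2 (plus strand, chr3:142620533-142620662): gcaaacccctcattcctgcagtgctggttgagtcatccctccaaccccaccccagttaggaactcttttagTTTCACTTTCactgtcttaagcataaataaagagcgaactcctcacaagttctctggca
Gbp3 (plus strand, chr3:142559914-142560043): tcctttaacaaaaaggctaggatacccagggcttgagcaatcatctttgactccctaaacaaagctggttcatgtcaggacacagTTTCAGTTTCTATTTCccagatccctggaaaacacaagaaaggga
Rsad2 (minus strand, chr12:26456453-26456582): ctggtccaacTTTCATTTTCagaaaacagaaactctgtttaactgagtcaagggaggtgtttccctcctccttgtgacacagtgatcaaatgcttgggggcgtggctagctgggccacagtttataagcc
Slfn8 (minus strand, chr11:83020811-83020940): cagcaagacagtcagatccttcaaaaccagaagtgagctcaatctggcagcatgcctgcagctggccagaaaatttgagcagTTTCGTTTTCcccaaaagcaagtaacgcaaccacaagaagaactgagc
Irgm1 and Gbp3 each hold 2 overlapping matches, 30 to 15 and 45 to 30 bases before the start. Gbp2, Slfn8 and Rsad2 hold 1 each, which begins 59, 48 and 120 bases before the start. RefSeq lists 2 starts each for Gbp3 and Slfn8, and only the first is shown. Of the 4 promoters of GTPase list genes that rose 3 held the searched letters, and the second start of Gbp3 did not. These letters were present in 10 of 19 promoters of tested members of the GTPase list (52.6%) and in 22 of 41 of the type I interferon-stimulated list (53.7%), against 353 of the 10399 promoters of tested genes (3.39%). Over all called genes they were in 10 of 151 promoters of genes that rose (6.62%) and 5 of 101 of genes that fell (4.95%). A promoter entry was matched for 106 of the 133 genes that rose and 70 of the 91 that fell, and some genes have several starts.

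Type I interferon-stimulated genes, the antiviral set switched on by secreted interferon beta, rose in 6 of 45 and fell in 0 (13.3% against 1.30% of all genes), with a median of 0.52. Ctrl had 19 rises among the 45, where 9.41% of all genes rose, with a list median of 0.58. The difference between the steps was called for 0. Rsad2, which encodes the antiviral enzyme viperin, measured 12395 and 12224 CPM at 2 h and 29517 and 31481 CPM at 4 h (1.31 ± 0.30, adjusted p = 0.0138). Its replicates nearly coincided at each time. Cmpk2, its neighbour and a mitochondrial nucleotide kinase, measured 893 and 867 CPM and then 2435 and 3245 CPM (1.69 ± 0.33, adjusted p = 0.00453). Oasl1 measured 369 and 365 CPM and then 823 and 1039 CPM (1.34 ± 0.31), and Ifih1, the cytosolic RNA sensor MDA5, 294 and 249 CPM and then 627 and 847 CPM (1.44 ± 0.34). The other calls were Mx1, a dynamin-like antiviral GTPase (1.35 ± 0.32), and Slfn8 (1.41 ± 0.35), which are named to complete the count, and Slfn8 belongs to a family of close copies whose reads may be divided. None of the 6 passed without replicate 2 at 4 h, where the adjusted p was 0.140 for Rsad2, 0.0841 for Cmpk2, 0.230 for Oasl1, 0.239 for Ifih1, 0.0508 for Mx1 and 0.426 for Slfn8, nor without replicate 2 at 2 h, where it ran from 0.0645 for Cmpk2 to 0.287 for Slfn8. Both of those leave-outs gave 0 calls on the list. Without replicate 1 at 2 h it gave 3, with Rsad2 (0.0744), Oasl1 (0.0924), Ifih1 (0.0595) and Mx1 (0.0860) above the threshold, and without replicate 1 at 4 h it gave 5, with Rsad2 (0.0504) and Mx1 (0.172) above it.

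Gene lists upstream and downstream of these were also examined. Of 19 STAT and IRF genes 0 were called and 3 were higher at an unadjusted p under 0.05, and the median was −0.02. Irf1, an early target of interferon signalling, measured 3074 and 3837 CPM at 2 h and 2270 and 2625 CPM at 4 h (−0.50 ± 0.32, adjusted p = 0.541). In the Ctrl step 9 of the 19 rose and 2 fell (9.41 and 8.56% of all genes did), and the difference between the steps was called for 0 of them. Of 21 MHC class I presentation genes 2 rose (9.52% against 1.30% of all genes). They were Tap2, a peptide transporter subunit (1.51 ± 0.41, adjusted p = 0.0450), and Nlrc5. Above 0 were 20 of the 21, against 4931 of all 10203 genes tested, and the median was 0.60. Ctrl had 8 rises and 1 fall among the 21, where 9.41% of all genes rose and 8.56% fell. The difference between the steps was called for 0. Tap2 failed without replicate 2 at 4 h (1.09, adjusted p = 0.484) and without either 2 h library (0.272 and 0.1). Of 8 MHC class II genes 0 were called and 2 were higher at an unadjusted p under 0.05.

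**Figure D2:**
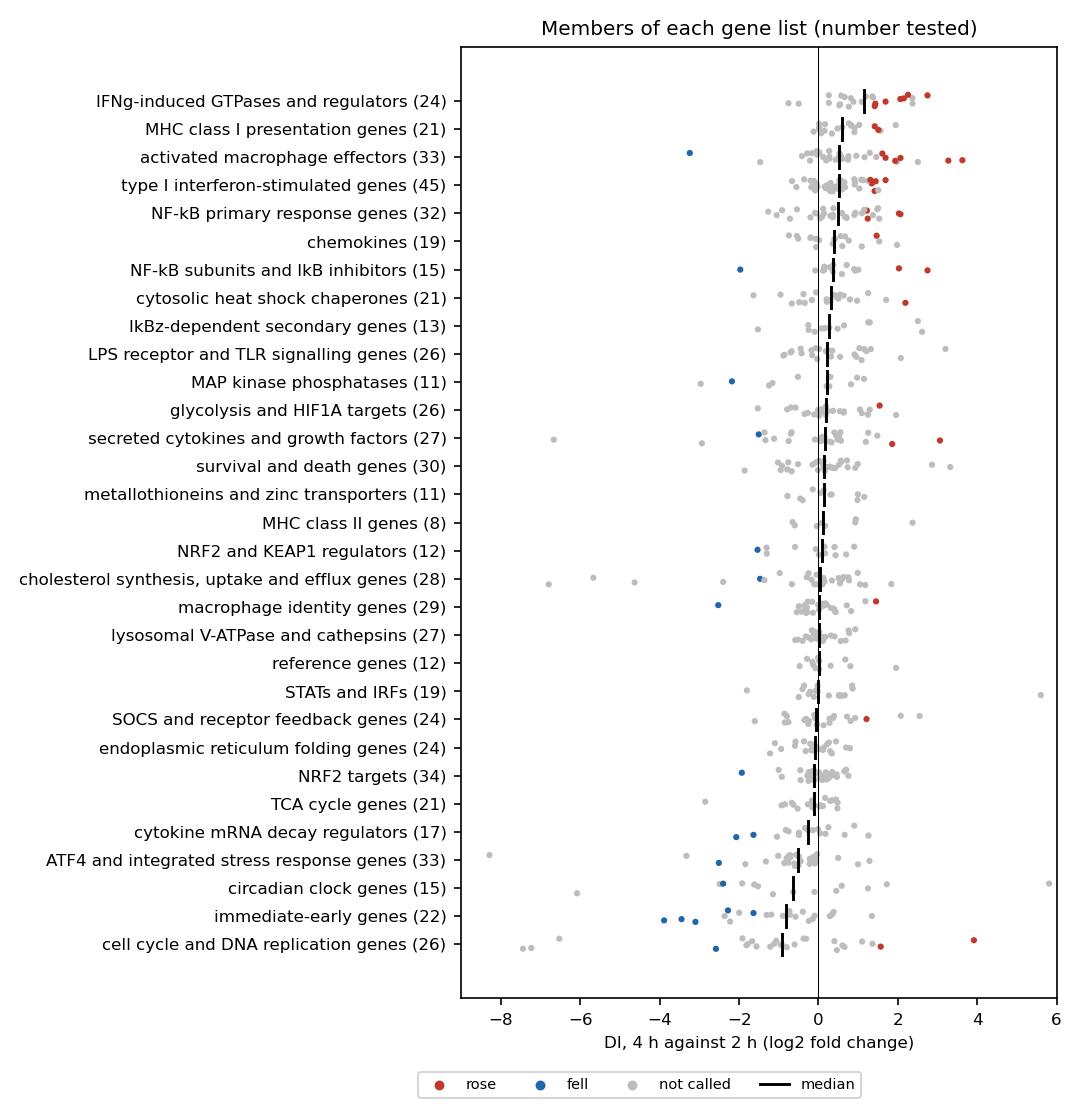
Log2 fold change from 2 to 4 h in DI libraries of the tested members of 31 gene lists, ordered by median, with genes that rose in red, genes that fell in blue, genes not called in grey and a bar at each median. IFNg-induced GTPases lie at the top with a median of 1.14, and immediate-early genes lie near the bottom with a median of −0.82. Points beyond the axis limits are not drawn.

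The antioxidant genes that DI is known to induce gave 1 call. Of 34 NRF2 targets tested 1 fell and 0 rose (2.94% fell, against 0.892% of all genes), and the median was −0.10. Gclm, a subunit of the enzyme that limits glutathione synthesis, measured 2509 and 2612 CPM at 2 h and 2076 and 2503 CPM at 4 h (−0.16 ± 0.32, adjusted p = 0.902). Slc7a11, the cystine importer, measured 303 and 456 CPM and then 305 and 346 CPM (−0.22 ± 0.33), and Nqo1, a quinone reductase, 34.5 and 28.4 CPM and then 33.2 and 25.2 CPM (−0.11 ± 0.47). The times overlapped for each of these 3. Hmox1, the haem-degrading oxygenase, was lower in both 4 h libraries, at 209 and 239 CPM and then 134 and 101 CPM (−0.92 ± 0.34), and was not called (adjusted p = 0.198). The call was Osgin1, an oxidative stress response gene, from 16.1 and 24.8 CPM to 5.36 and 5.30 CPM (−1.93 ± 0.53, adjusted p = 0.0499), and it did not hold without either 4 h library or replicate 2 at 2 h (adjusted p 0.150 to 0.392). Bach1, a repressor of NRF2 target genes, fell from 1122 and 1335 CPM to 384 and 464 CPM (−1.54 ± 0.34, adjusted p = 0.0118), a call that was lost without either 4 h library (adjusted p = 0.110 and 0.0844) or replicate 2 at 2 h (0.111).

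Of 33 genes of ATF4 and the integrated stress response 1 fell and 0 rose (3.03% fell, against 0.892% of all genes). Ctrl had 4 rises and 10 falls among 32 tested, Trib3 among the falls, with a median of −0.52. Of all genes 9.41% rose and 8.56% fell in Ctrl. The difference between the steps was called for 0 of 33. Of the 33 in the DI step, 30 were not above 0, with a median of −0.52. Of all 10203 genes tested 4931 were above 0. Trib3, a pseudokinase induced by ATF4, measured 47.9 and 62.7 CPM and then 12.4 and 6.89 CPM (−2.51 ± 0.51, adjusted p = 0.00582). It did not pass without replicate 2 at 4 h (−2.15, adjusted p = 0.122) or at 2 h (−2.30, adjusted p = 0.0718). Among 21 cytosolic heat shock chaperones 1 rose (4.76% against 1.30% of all genes). Hspa4l, an HSP110-family protein, measured 47.9 and 38.4 CPM and then 221 and 173 CPM (2.19 ± 0.37, adjusted p = 9.42e-04) and passed with any library left out. Endoplasmic reticulum folding genes gave 0 calls of 24, with 2 lower at an unadjusted p under 0.05.

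Metabolic and housekeeping lists gave few calls. The single rises among glycolysis and identity genes are 3.85 and 3.45% of those lists, against 1.30% of all genes. The single falls among cholesterol and clock genes are 3.57 and 6.67%, against 0.892%. Tricarboxylic acid cycle genes gave 0 calls of 21 (3 lower at an unadjusted p under 0.05) and lysosomal V-ATPase and cathepsin genes 0 of 27 (1 higher). Of 26 glycolysis and HIF1A target genes 1 rose, the phosphofructokinase gene Pfkp, at 78.9 and 91.3 CPM and then 125 and 370 CPM (1.54 ± 0.41, adjusted p = 0.0460), and without replicate 2 at 4 h its log2 fold change was 0.56 (adjusted p = 0.843). Without replicate 1 or 2 at 2 h the adjusted p was 0.181 and 0.195. Abca1, the cholesterol efflux pump, was the 1 of 28 cholesterol genes called (−1.47 ± 0.36, adjusted p = 0.0265), and lost the call without either 4 h library (adjusted p = 0.0592 and 0.291) or replicate 2 at 2 h (0.259). Nfil3, a circadian and cytokine-responsive repressor, measured 61.2 and 61.1 CPM and then 11.5 and 11.7 CPM (−2.40 ± 0.47, adjusted p = 0.00476), the 1 call of 15 clock genes, which reached 0.0645 without replicate 2 at 4 h. Mertk, a receptor for the uptake of dead cells, was the 1 of 29 identity genes that rose (1.45 ± 0.33, adjusted p = 0.0147), and it did not pass with any library left out (adjusted p 0.0628 to 0.187). Cell cycle genes had a median of −0.57 over 28 tested in Ctrl, with 2 rises (Ccnd2 and Ccne1) and 4 falls, Mcm3 among them. Of all genes 9.41% rose and 8.56% fell in Ctrl. The difference between the steps was called for 0 of 30 cell cycle genes. In DI the median of the list was −0.93 over 26 tested. Ccne1 and Ccnd2 rose in DI and Mcm3 fell (7.69 and 3.85%, against 1.30 and 0.892% of all genes). Ccnd2, a G1 cyclin, measured 124 and 135 CPM and then 364 and 402 CPM (1.57 ± 0.34, adjusted p = 0.0101), and passed without replicate 1 at 4 h only (0.0751 to 0.0948 without each of the others). Survival genes (30 tested), metallothionein and zinc genes (11) and reference genes (12) gave 0 calls each by the edgeR quasi-likelihood test, against 2 higher and 4 lower, 3 higher, and 2 higher at an unadjusted p under 0.05. Under the other settings run, a list given here with 0 calls had at most 4, the LPS receptor and TLR list.

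The same interval without pretreatment is the matched comparison, and it shares no library with the DI step. Of 10361 genes tested in Ctrl 975 rose and 887 fell (9.41% and 8.56%, 18.0% in all). Scaling by genes of at least 32 CPM changed that split to 698 and 1207 with a shift of −0.15 in the median, and changed the DI split to 117 and 110 with a shift of −0.08. Of the 133 genes that rose in DI 82 also rose in Ctrl and 2 fell there. The 82 are 61.7% of the DI list and 8.77% of the 935 Ctrl rises tested in both, and 9.42% of all genes tested in both rose in Ctrl. Of the 91 that fell in DI 71 also fell in Ctrl and 1 rose. The 71 are 78.0% of the DI list and 8.11% of the 876 Ctrl falls tested in both, where 8.83% of all genes fell in Ctrl. The fits differ in spread, so the counts of calls are not a measure of how much each culture changed. In a model of all 20 libraries, with 1 spread for both, the Ctrl step had 587 calls and the DI step 617, and with 1 Ctrl library left out the Ctrl step had 875 to 1237.

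Genes called in either step moved mostly the same way in the other. The Ctrl log2 fold change had the same sign for 119 of the 133 DI rises and 88 of the 91 DI falls (89.5% and 96.7%). Of all genes tested in both, 51.4% were above 0 and 48.6% below 0 in Ctrl. The DI value had the same sign for 753 of 935 Ctrl rises and 660 of 876 Ctrl falls (80.5% and 75.3%). In the DI step 4931 of all 10203 genes tested were above 0. The DI rises had a median of 1.90 in DI and 1.06 in Ctrl, and the Ctrl rises a median of 1.12 in Ctrl and 0.58 in DI. The DI falls had medians of −2.25 and −1.68, and the Ctrl falls −1.43 and −0.71. Each list is larger in the step that chose it. Across the 9921 genes tested in both steps r was 0.33, and across the 1997 of at least 100 CPM it was 0.52, as a description over genes that share libraries. Slco3a1 (3.52 in DI, 3.32 in Ctrl), Clic5 (4.55 and 4.70), Trib1 (−3.13 and −2.72) and Bach1 (−1.54 and −1.56) changed by similar amounts in both.

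**Figure D3:**
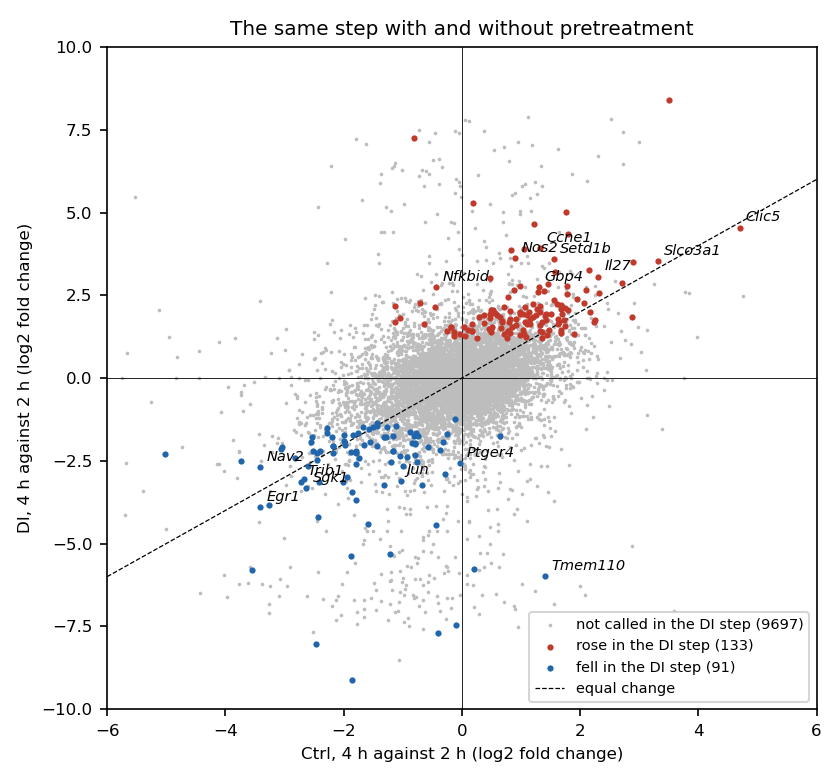
Log2 fold change from 2 to 4 h in Ctrl libraries (horizontal) and DI libraries (vertical) of the 9921 genes tested in both, with genes that rose in DI in red (133), genes that fell in blue (91), other genes in grey and a dashed line of equal change. Slco3a1 and Clic5 lie near the line, Setd1b above it and Jun below it. Outside the axes lie 6 genes.

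The difference between the steps was tested in a fit of all 20 libraries and was called for 15 of 10663 genes (0.141%), 8 higher in DI (0.0750%) and 7 lower (0.0656%), while 1208 had an unadjusted p under 0.05. That count was 155 without a filter on low counts, 103 with the DESeq2 Wald test, 5 with limma-voom or with a replicate block, 2 with quality weights by treatment and 2 to 139 with 1 library left out. Some of these genes are described here. Others have their values in the closing section, among them Tmem110, which had the lowest adjusted p of the 15 (7.53e-04). Slc43a2, a transporter of large neutral amino acids, measured 428 and 394 CPM at 2 h and 445 and 686 CPM at 4 h in DI, and 187 and 198 CPM and then 38.6 and 35.8 CPM in Ctrl. It fell in Ctrl alone of the 2 fits (−2.37 ± 0.25 against 0.46 ± 0.34 in DI), and the difference of 2.83 ± 0.42 was called (adjusted p = 0.00270). Fbrsl1, a fibrosin-like gene, measured 56.5 and 70.4 CPM and then 39.0 and 33.4 CPM in DI, and 27.5 and 33.6 CPM and then 141 and 126 CPM in Ctrl (difference −2.93 ± 0.46, adjusted p = 0.00528). Maml2, a Notch coactivator, measured 16.1 and 21.4 CPM and then 21.0 and 23.6 CPM in DI, and 13.3 and 18.6 CPM and then 132 and 148 CPM in Ctrl (−2.88 ± 0.49, adjusted p = 0.0132). For Slc43a2 the call held with each of the 8 libraries left out, with an adjusted p of at most 0.0473. That of Fbrsl1 was lost without replicate 2 of DI at 4 h or replicate 1 of Ctrl at 2 h (at most 0.107), and that of Maml2 in 4 of the 8 (at most 0.133, without replicate 1 of Ctrl at 2 h).

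Both Setd1b and Jun changed in each step and by more in DI. Setd1b measured 52.9 and 59.6 CPM at 2 h and 163 and 168 CPM at 4 h in Ctrl (1.56 ± 0.23), and its difference between steps was 2.03 ± 0.39 (adjusted p = 0.0374). Jun measured 505 and 448 CPM and then 230 and 234 CPM in Ctrl (−1.04 ± 0.23), and its difference was −2.06 ± 0.43 (adjusted p = 0.0478). Both calls sit close to the threshold. Without replicate 2 of Ctrl at 4 h the adjusted p for Setd1b was 0.215, the highest of 5 leave-outs that lost it, and for Jun it reached 0.317 without replicate 2 of DI at 4 h, with 7 of 8 lost. Nos2 had a log2 fold change of 0.90 ± 0.31 in Ctrl, which was not called, and its difference of 2.72 ± 0.58 did not pass (adjusted p = 0.0530). The differences for Dusp1 (−1.81 ± 0.41, adjusted p = 0.0713), Ccne1 (2.59 ± 0.62, 0.0815) and Ptger4 (−2.53 ± 0.53, 0.0530) did not pass either. For Fos, which fell in Ctrl (−1.68) and was higher without a call in DI (1.35), the difference of 3.02 ± 0.67 did not pass (adjusted p = 0.0713).

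The other times show where the step sits in each gene's course. Nfkbiz in DI libraries stood at 4.59 and 4.03 CPM at 0 h and at 764 and 536 CPM at 1 h, level with 2 h, and at 104 and 165 CPM at 6 h. Sgk1 was highest at 2 h, with 114 and 90.7 CPM at 1 h and 10.9 and 8.49 CPM at 6 h. Setd1b was at 133 and 187 CPM before the stimulus and 102 and 128 CPM at 1 h, above its 2 h libraries, and 271 and 252 CPM at 6 h. Its lowest DI libraries were thus those at 2 h. Nos2 was at 0.177 and 0.230 CPM at 0 h and 285 and 335 CPM at 6 h, and Il27 at 2.12 and 2.99 CPM and then 501 and 313 CPM, so the 6 h libraries of both overlapped those at 4 h. Gbp4 had 672 and 727 CPM at 6 h, below both of its 4 h libraries.

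**Figure D4:**
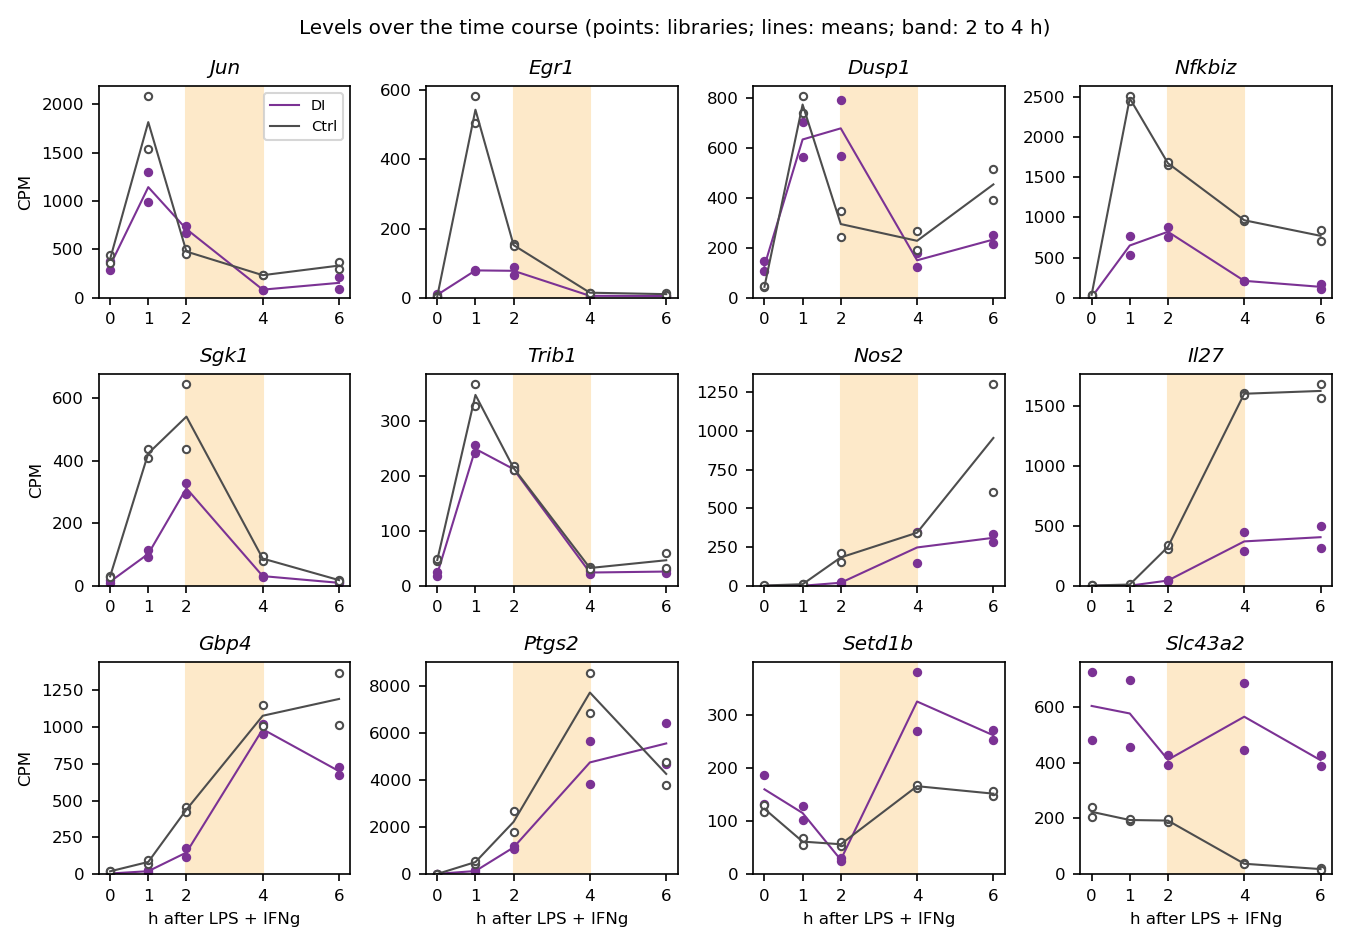
Levels in CPM on a linear scale against hours after LPS and IFNg for 12 genes, with DI libraries as filled purple points, Ctrl libraries as open grey points, lines through the means of 2 and a shaded band from 2 to 4 h. Within the band the DI lines of Jun, Egr1, Dusp1, Nfkbiz, Sgk1 and Trib1 go down and those of Nos2, Il27, Gbp4, Ptgs2 and Setd1b go up. The Ctrl line of Slc43a2 goes down in the band while the DI libraries stay between 394 and 686 CPM.

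The libraries at 0, 1 and 6 h are not among the 4 of the step, although they enter the same fit. In the change from 1 to 6 h in DI, where 541 genes rose (5.30%) and 491 fell (4.81%), 10.1% in all, 84 of the 133 step rises also rose and 0 fell. Of the 133, 118 were above 0, where 46.2% of all genes were above 0. Of the 91 step falls 56 fell and 0 rose, with 87 below 0, where 53.7% of all genes were below 0. Genes were then grouped by a call with a log2 fold change of at least 1 in those libraries. The counts below stand against 1.30% of all genes that rose in the step and 0.892% that fell. Of the 36 genes that rose from 0 to 1 h and fell from 1 to 6 h, 20 fell in the step and 0 rose, with a median of −1.59. Of the 69 that rose in both intervals 10 rose in the step and 0 fell, with a median of 0.57. The 118 early genes called in neither direction later had 1 rise and 3 falls and a median of −0.13. Of 538 genes that rose from 1 to 6 h 84 rose in the step, and of 491 that fell 56 fell. The early interval had 227 calls over all genes (2.22%), 224 higher (2.20%) and 3 lower (0.0294%). Among the 224 early genes 23 fell in the step, among them Jun, Egr1, Dusp1, Nfkbiz, Sgk1 and Trib1, and 11 rose, among them Ptgs2 and Gbp4. The 2 intervals share the 1 h libraries.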

How the data were processed

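RNA was measured in 20 libraries by 3′-end sequencing with a barcoded oligo-dT primer, libraries were pooled by their Actb qPCR value, and no molecular identifiers are named, per the labels' protocols. The values are raw counts per gene that the authors deposited. STAR, HTSeq, DESeq2 and mm10 are named in the submitters' processing notes, and the strand setting of the counting is not given in the sources used here. Symbols and coordinates came from the GENCODE annotation of GRCm38 (21745 of 22165 genes had a symbol). Counts were fitted with edgeR 4.0.16 in R 4.3.3 (filterByExpr, TMM over all 20 libraries, robust quasi-likelihood test, Benjamini-Hochberg adjustment). The DI step used the 10 DI libraries, the Ctrl step the 10 Ctrl libraries and the difference between steps all 20. limma 3.58.1 (voom) and DESeq2 1.42.0 served as alternatives, beside other scalings, filters, sets of libraries and a replicate block. The fit was run on simulated counts that had 1 spread for all genes of the DI libraries. Those counts did not model the sparseness or the replicate differences of the DI libraries, so the run cannot speak to their effect. Genes named were up to 12 per direction of at least 20 CPM with the largest called change, up to 4 per list by p, and a panel of inflammatory genes, and others are marked as chosen after their values were seen or as completing a count. The members and lists were chosen with earlier results of these data known. Counting error alone is covered by intervals and by the floor of 3 counts. Results for a few genes are not reported here.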

Additional observations from a re-analysis of the deposited data

Results flagged for a closer look

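The change from 2 to 4 h differed between DI and Ctrl libraries for 15 genes by the interaction term of the edgeR quasi-likelihood fit, and 14 are given as DI minus Ctrl on the log2 scale with its adjusted p and the highest adjusted p with 1 of the 8 libraries left out.

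Slc43a2 (2.83, adjusted p = 0.00270, at most 0.0473) and Tmem110 (−7.43, adjusted p = 7.53e-04, at most 0.00897) passed with each of the 8 libraries left out. Tmem110, a regulator of calcium entry, had 79 counts over the 2 h and 1 over the 4 h DI libraries, a ratio of 1.33% of the 2 h level (exact 95% interval 0.0333 to 7.64%), while Ctrl rose from 13.5 and 13.3 CPM to 36.9 and 34.6 CPM.

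The others named here lost the call in at least 1 such fit. Among those higher in DI were Cep250, a centrosomal protein (3.84, adjusted p = 0.0374, at most 0.306), Nfkbid (3.19, 0.0287, at most 0.186), Setd1b (2.03, 0.0374, at most 0.215) and Map7d1, a microtubule-binding protein (2.21, 0.0478, at most 0.336). Slc23a2, a vitamin C transporter, gave 2.27 (0.0478, at most 0.350). Slc23a2 rose from 55.1 and 71.4 CPM to 147 and 242 CPM in DI. In Ctrl it stood at 79.2 and 56.3 CPM and then 42.5 and 43.9 CPM. Its call in the DI step was lost without replicate 2 at 4 h or either 2 h library. Trim65, a ubiquitin ligase, had a fitted difference of 8.19 (0.0374, at most 0.178) that depends on the prior count, because it had 0 counts in both DI libraries at 2 h. At 3.66 and 3.71 CPM at 4 h it was at least 5.07-fold higher than 3 counts per library at 2 h. Genes with only 1 to 3 reads were scarcer in the DI libraries than in Ctrl, and the part of this in the genes at or near 0 was not tested.

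Among those lower in DI were Jun (−2.06, adjusted p = 0.0478, at most 0.317), Maml2 (−2.88, 0.0132, at most 0.133) and Fbrsl1 (−2.93, 0.00528, at most 0.107). Ikzf1, a lymphoid and myeloid transcription factor, gave −1.80 (0.0374, at most 0.307), with 168 and 184 CPM and then 119 and 95.9 CPM in DI against 490 and 488 CPM and then 877 and 1211 CPM in Ctrl. Sh3bp5, a JNK-binding protein, gave −2.39 (0.0374, at most 0.305). Ints5, an Integrator subunit, gave −5.97 (0.0374, at most 0.307), with 125 counts over the 2 h and 2 over the 4 h DI libraries, a ratio of 1.68% (exact 95% interval 0.202 to 6.21%). Maml2 overlaps Phxr4 on the same strand and Sh3bp5 overlaps Capn7 on the opposite strand.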

How the results depend on the processing

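The DI step gave 224 calls, and 356 without a filter on low counts, 404 with the DESeq2 Wald test, 617 in a model of all 20 libraries, 61 to 248 with 1 library left out and 21 with both replicate 2 libraries out, the last chosen after seeing the data. The Ctrl step gave 1862 calls, 587 in the model of all 20 and 875 to 1237 with 1 library left out. The difference between steps gave 15 calls, 23 when scaled by genes of at least 32 CPM, 155 without a filter, 103 with the DESeq2 Wald test, 5 with limma-voom, 2 with quality weights by treatment, 6 from the 8 libraries compared alone, 2 to 139 with 1 library left out and 1 with both DI replicate 2 libraries out. The cause was not tested. Of the 224 genes 15 kept their call under every alternative run for the DI step and 0 reversed. Gene by gene, deviations of same-numbered libraries were uncorrelated (r = −0.0107 in DI and −7.43e-04 in Ctrl between 2 and 4 h), although replicate 1 of DI had the higher mitochondrial share and fewer genes at 0 at every time. With a replicate block the DI step gave 221 calls, 210 of them shared, the Ctrl step 1764 and the difference 5. With 2 libraries per group, no change smaller than 1.21 on the log2 scale was called in the DI step at any level. Small changes may thus have been missed in abundant genes as well as in low ones, and a gene not called may have changed.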
